A study of Saccharomyces cerevisiae with 7 samples.

Results

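The genes described here encode the cold-shock and anaerobic cell wall mannoproteins of budding yeast (Saccharomyces cerevisiae), named TIR1, TIR2, TIR3, TIR4, TIP1, DAN1 and DAN4. They were taken by symbol from the arrays' gene annotation, and the group was chosen because TIR1 and TIP1 stood far above wild type in the arp6 deletion, so their ratios in that mutant are given as a description without a test. Of the 7 genes, 6 had values, each from 1 probe, among 5344 named genes tested, and all 6 passed the filter on missing values. DAN4 was not analysed here. The study compared a deletion of ARP6 (4 arrays) and a deletion of SWR1 (3 arrays) with a control strain, all in the W303 background. Arp6 is an actin-related subunit, and Swr1 the catalytic subunit, of the SWR-C remodelling complex that places the histone variant Htz1 into nucleosomes. Cells grew exponentially in rich glucose medium (YPD) at 25 °C, with no cold shock and no anaerobic culture among the conditions. On each array RNA of the deletion strain carried Cy5 and that of wild type Cy3, without any array of the reverse dyes, so a fixed dye effect and an effect of the deletion cannot be told apart in a ratio against wild type. Values are log2 ratios of the deletion strain over wild type, so that 1 stands for 2-fold higher. The arrays give RNA of a whole culture.

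These proteins belong to the Srp1/Tip1 family, which are rich in serine and alanine, carry O-linked mannose chains and are linked to the wall through a glycosylphosphatidylinositol (GPI) anchor. TIP1, TIR1 and TIR2 are known as genes induced by cold shock. The DAN and TIR genes are also known from anaerobic growth, where the sterol-responsive activator Upc2 turns them on, while in air Rox1, Mot3 and the Tup1-Cyc8 corepressor keep them low. The seripauperins (PAU genes) are a large, nearly identical branch of the same family, and Cwp1 is a wall protein typical of aerobic cells.

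The arrays were not alike within a mutant. Over all features, arp6 replicates 1 and 2 correlated with each other at r = 0.67 and replicates 3 and 4 at r = 0.84, whereas across these pairs r lay between 0.26 and 0.37. In the swr1 deletion, replicates 2 and 3 correlated at 0.81 and replicate 1 with them at 0.49 and 0.45. ARP6 (YLR085C) was below wild type on each arp6 array (−1.28, −1.26, −1.19 and −0.63) and SWR1 (YDR334W) on each swr1 array (−0.42, −1.02 and −1.01). No source used here says what the arp6 pairs share, such as a culture or a day of hybridisation, so the arp6 values of the 6 genes are given array by array.

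TIR1 (YER011W), a cold-shock mannoprotein that is also needed for anaerobic growth, read 1.44, 0.78, 4.50 and 3.18 on arp6 replicates 1 to 4. It was above wild type on all 4 arrays, but replicates 3 and 4 lay well above the other pair. The mean was 2.47 ± 1.69 (SD, n = 4), made up of 1.11 ± 0.47 (n = 2) for replicates 1 and 2 and 3.84 ± 0.94 (n = 2) for replicates 3 and 4, the latter a 14.3-fold higher level than wild type. TIR1 had rank 1 of 5862 features on replicate 3 and rank 2 of 5871 on replicate 4, against rank 643 and rank 782 on replicates 1 and 2.

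TIP1 (YBR067C), the founding cold- and heat-shock gene of the family, read 2.39, 0.72, 3.53 and 2.76 in the arp6 deletion. Here the pairs were not as far apart, because replicate 1 came near replicate 4, and replicate 2 was the low array. The mean was 2.35 ± 1.19 (SD, n = 4), and that of replicates 3 and 4 was 3.15 ± 0.54 (n = 2), or 8.86-fold. TIP1 had rank 4 on both of these arrays, rank 167 on replicate 1 and rank 877 on replicate 2.

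DAN1 (YJR150C), a mannoprotein gene that is silent in air and strongly transcribed without oxygen, split the arp6 arrays most clearly. It read −0.66 and −0.59 on replicates 1 and 2 but 4.23 and 2.67 on replicates 3 and 4. The pairs lay on opposite sides of wild type, so the mean of 1.41 ± 2.44 (SD, n = 4) describes neither of them. On replicates 3 and 4 alone DAN1 stood at 3.45 ± 1.10 (n = 2), or 10.9-fold, with rank 2 and rank 6. Spot intensities were not used, so the wild-type signal behind this fold and these ranks is unknown.

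TIR2 (YOR010C), a cold-shock gene like TIR1, read −0.82, −1.01, 1.72 and 1.29 in the arp6 deletion. TIR3 (YIL011W), a wall protein required for anaerobic growth, read −1.03, −1.54, 1.93 and 0.92. Both were below wild type on replicates 1 and 2 and above it on replicates 3 and 4, as DAN1 was. Their means were 0.29 ± 1.41 and 0.07 ± 1.63 (SD, n = 4), and over replicates 3 and 4 they were 1.51 ± 0.30 and 1.43 ± 0.71 (n = 2). TIR4 (YOR009W), an anaerobic mannoprotein gene that lies next to TIR2 in the genome, ran the other way, with 1.15 and 0.68 on replicates 1 and 2 and 0.45 and 0.23 on replicates 3 and 4. Its arrays were closer together than those of any other of the 6 genes, at 0.63 ± 0.39 (SD, n = 4).

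**Figure D1:**
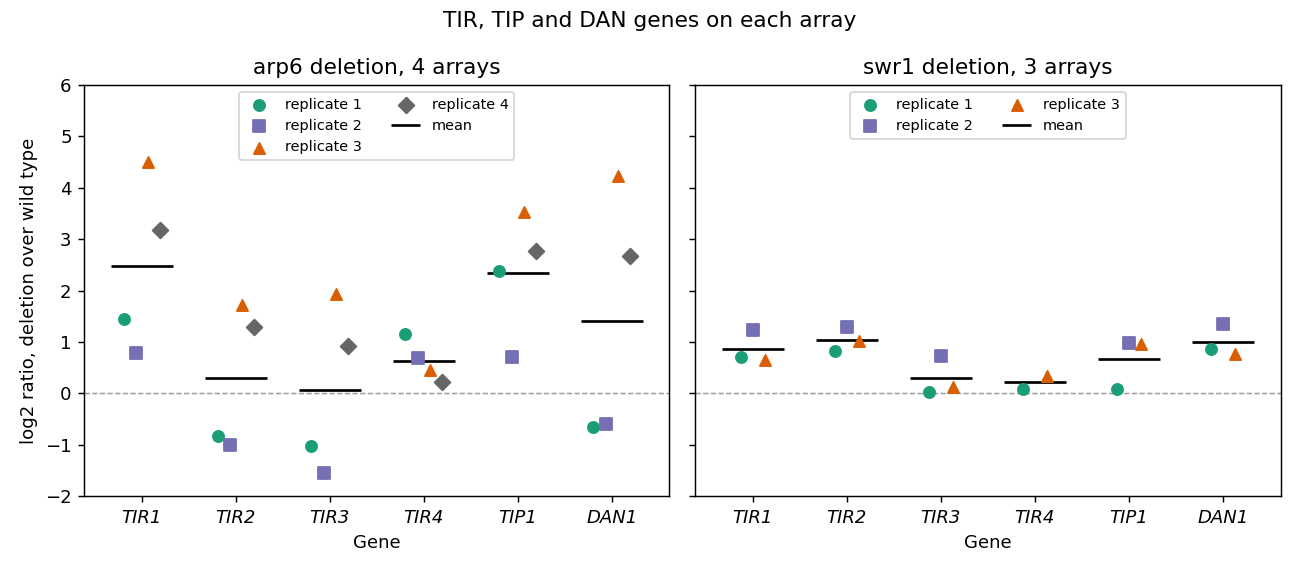
Log2 ratio of deletion strain over wild type (y axis) for the 6 measured genes (x axis), 1 point per array, with the mean as a black line, for the 4 arp6 arrays (left) and the 3 swr1 arrays (right). On the left, replicates 3 and 4 of TIR1, TIP1 and DAN1 sit between 2.67 and 4.50, while TIR2, TIR3 and DAN1 are below 0 on replicates 1 and 2; on the right all points lie between 0.03 and 1.36, and TIR4 has 2 points.

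TIR1, DAN1 and TIP1 were the 3 highest of the 5861 features measured on both arp6 replicates 3 and 4, by the mean of these arrays. TIR2 and TIR3 followed at rank 87 and rank 113, and TIR4 at rank 1679. The genes at rank 4, 6, 7 and 8 were INA1 (2.98) and the ribosomal protein genes RPP1A (2.50), RPS27B (2.44) and RPL30 (2.41), and an unnamed probe had rank 5. Of the 6 genes, 4 were above 2-fold on both replicates, as were 3.91% of all features, and TIR3 missed this on replicate 4 only. Above 0 on all 4 arp6 arrays were 3 genes, TIR1, TIR4 and TIP1, as were 20.6% of features. The group was chosen on this contrast, so nothing is read from either count.

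The rows of the table bear on the values of replicates 1 and 2. With genes in the order of their systematic names, the 4 arp6 arrays were compared in windows of 121 rows, once row against row and once with the mean of replicates 1 and 2 displaced by up to 4 rows against that of replicates 3 and 4. For 86.5% of rows the same row gave the highest correlation. In 3 stretches of 78, 133 and 88 rows, however, the values of replicates 1 and 2 matched the gene 1 or 2 rows further on, and TIR3 lies in the stretch of 133 rows, where r was 0.10 row against row and 0.43 with a displacement of 1. Around TIR3 itself r was 0.13 for the same row and 0.42 for the next. If TIR3 takes its values for replicates 1 and 2 from the row above, that of the peroxiredoxin gene DOT5 (0.82 and −0.17), its mean becomes 0.88 ± 0.86 (SD, n = 4) in place of 0.07, and replicates 1 and 2 no longer both lie below wild type.

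The other 5 genes lie outside these stretches, with different certainty. For TIP1 the same row was clearly best, at r = 0.36 against −0.04 for the next row. For TIR2 and TIR4 the same row was also best, at 0.33 and 0.32 against 0.17 for both. TIR1 was not settled, at 0.19 for the same row and 0.25 for the next, which is below the gain of 0.15 asked for. From the row above, YER010C, TIR1 would read 0.17 and 0.24 on replicates 1 and 2, with a mean of 2.02 ± 2.17, and these arrays would stand near wild type. DAN1 was not settled either, at 0.18 for the same row, 0.06 for the next and 0.19 at 4 rows, and the row above it had no value on replicates 1 and 2. TIR2 and TIR4 occupy adjoining rows, and from the row above TIR2 would read 1.15 and 0.68, the values now listed for TIR4, with a mean of 1.21 ± 0.43, while TIR4 would stand at −0.30 ± 0.75. The windows alone do not tell which pair of arrays is displaced. The 6 genes for ribosomal proteins inside the stretches, looked at after the stretches were known, had a median of 1.22 at their own rows on replicates 3 and 4, against 1.08 for 112 such genes elsewhere. On replicates 1 and 2 their median was −0.06 at their own rows and 1.02 with the displacement undone, against 1.01 elsewhere. Values of replicates 3 and 4 were therefore kept in place, and whether a displacement reaches the values of TIR1, TIR2, TIR4 and DAN1 on replicates 1 and 2 was not tested gene by gene.

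**Figure D2:**
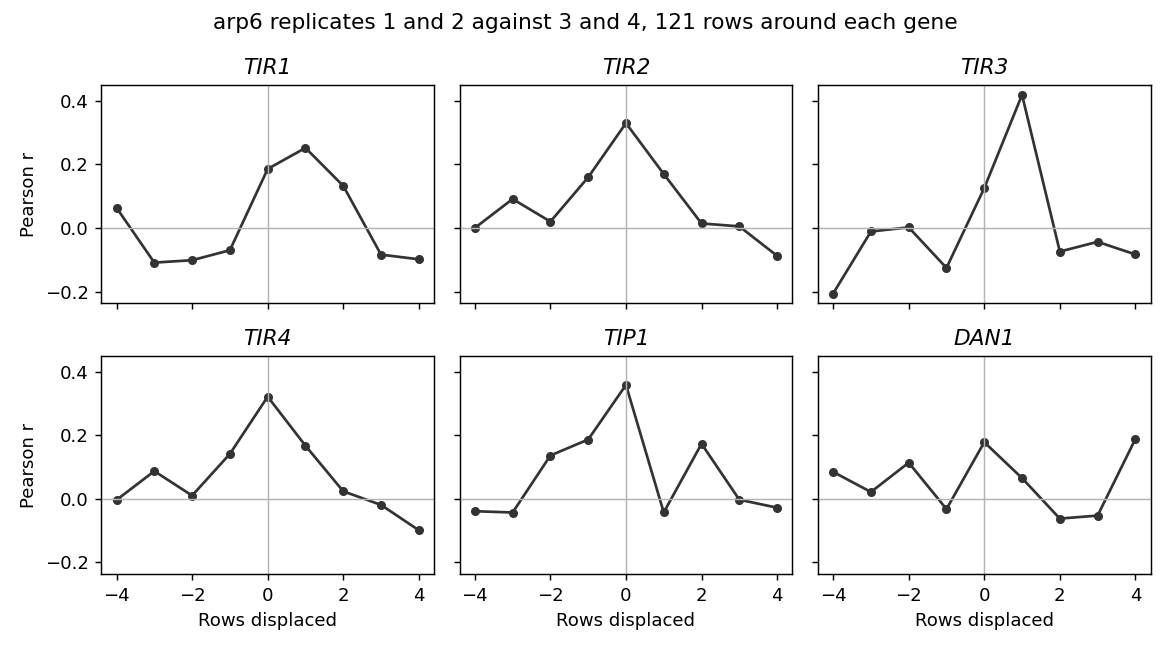
Pearson correlation (y axis) of the mean of arp6 replicates 1 and 2 with the mean of replicates 3 and 4 over 121 rows around each gene, against the number of rows by which the former are displaced (x axis). The curve peaks at 0 for TIP1 (0.36), TIR2 (0.33) and TIR4 (0.32), at 1 for TIR3 (0.42), and has no clear peak for TIR1 and DAN1.

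In the swr1 deletion 4 of the 6 genes rose, TIR2, DAN1, TIR1 and TIP1, each by 1.60-fold to 2.06-fold, and none fell. The stated reason for choosing the genes names only the arp6 ratios of TIR1 and TIP1. Earlier results of these data were known at that time, however, so the swr1 values are not a fully separate test. The test was limma on the 3 swr1 arrays, with Benjamini-Hochberg adjustment over all 5879 features at 0.05. It called 22.2% of all features, and 11.2% of all features were called higher, against 66.7% of the 6 genes. These genes belong to one family and probe sequences were not checked, so the 4 calls may not be separate measurements. The sources do not tell if the swr1 arrays and the arp6 arrays were hybridised with one wild-type RNA, in which case the ratios of both mutants share it. With the deletion strain in Cy5 on every array, they would share a fixed dye effect too, and this was not tested. When all 7 arrays were fitted together, which gives the swr1 ratios a spread shared with the wider arp6 arrays, none of the 6 genes passed (adjusted p from 0.418 to 0.885 in limma), and neither did any other feature in this mutant, though 790 had an unadjusted p under 0.05.

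TIR2 read 0.83, 1.29 and 1.01 on swr1 replicates 1 to 3. All 3 arrays were above wild type and close together, with a mean of 1.04 ± 0.23 (SD, n = 3) and a limma adjusted p of 0.0214. DAN1 read 0.87, 1.36 and 0.77, with a mean of 1.00 ± 0.31 (SD, n = 3; limma adjusted p = 0.0214). TIR1 read 0.71, 1.23 and 0.65, with a mean of 0.87 ± 0.32 (SD, n = 3; limma adjusted p = 0.0225). For DAN1 and TIR1 replicate 2 was the high array, and without it TIR1 no longer passed (0.68, limma adjusted p = 0.0800).

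TIP1 read 0.08, 0.98 and 0.95, so it was near wild type on replicate 1 and about 2-fold higher on the other arrays. Its mean was 0.67 ± 0.51 (SD, n = 3) with a limma adjusted p of 0.0479, and the call was lost without replicate 2 (0.52, limma adjusted p = 0.219), without replicate 3 (0.53, limma adjusted p = 0.122) and when the arrays were scaled to one spread (0.65, limma adjusted p = 0.0526). TIR3 read 0.03, 0.73 and 0.13, with a mean of 0.29 ± 0.38 (SD, n = 3; limma adjusted p = 0.206), and was past the threshold only without replicate 1 (0.43, limma adjusted p = 0.00984). TIR4 had values on replicates 1 and 3, 0.09 and 0.35, with a mean of 0.22 ± 0.18 (SD, n = 2; limma adjusted p = 0.310). The 5 genes with 3 values were above 0 on all 3 arrays, as were 30.8% of all features.

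By mean swr1 ratio the order was TIR2, DAN1, TIR1, TIP1, TIR3 and TIR4, and each neighbour in this order differed by less than 1 SD of its arrays. Among all features TIR2 had rank 30, DAN1 rank 39, TIR1 rank 73 and TIP1 rank 227 of 5879. The order was not that of arp6 replicates 3 and 4, where TIR1, DAN1 and TIP1 led TIR2 by between 1.64 and 2.33 on the log2 scale.

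Over the 7 arrays, TIR3 varied most closely with DAN1 (r = 0.96) and TIR2 (r = 0.95), and TIR1 with TIP1 (r = 0.91) and DAN1 (r = 0.87). TIP1 and TIR2 were only loosely related (r = 0.27). With the displaced values of TIR3 moved back, its r was 0.51 with TIR2, 0.78 with DAN1, 0.92 with TIR1 and 0.90 with TIP1, so its closest partners depend on that step. TIR4, on the 6 arrays that measured it, had r between −0.75 and 0.26 with the others. These values describe 4 arp6 and 3 swr1 arrays, each against wild type, and rest largely on the contrast of arp6 replicates 3 and 4 with the rest.

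Outside the group, the profiles most like that of TIR1 among 5106 other genes measured on all 7 arrays were those of RPA12, a subunit of RNA polymerase I (r = 0.98), the ribosomal protein gene RPL4B (0.98), the phosphate transporter gene PHO90 (0.98), the RNA-binding protein gene VTS1 (0.97) and ERV46 of the secretory pathway (0.97). RPA12 read 0.97, 0.35, 2.24 and 1.86 in the arp6 deletion and 0.47, 0.64 and 0.64 in the swr1 deletion. Those most like TIP1 were PHO90 (0.96), the wall protein gene TOS6 (0.96), RPS27B of the small ribosomal subunit (0.95), SLI15 of the chromosomal passenger complex (0.95) and the histidine biosynthesis gene HIS6 (0.95). TOS6 read 0.98, 0.38, 2.24 and 1.56 in the arp6 deletion and 0.18, 0.54 and 0.77 in the swr1 deletion. With 7 arrays and this many genes such values are a description only.

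The gene lists from here on were chosen with earlier results of these data known, so their shares beside all features are a description only. Of 22 PAU genes with values (24 listed), none passed in the arp6 deletion, where limma on its 4 arrays called 5.36% of all features (2.09% higher and 3.27% lower, with 1730 features at an unadjusted p under 0.05). Their median was −0.13, against −0.02 over all features, and the array medians were −0.20, 0.30, −0.27 and −0.45, so that the PAU median was below 0 on the arrays where TIR1, DAN1 and TIP1 were highest. On replicates 3 and 4 alone 6 PAU genes were called lower. In that fit 2547 of 5861 features were called in either direction, so nothing particular to the PAU genes is read from the 6. In the swr1 deletion 11 PAU genes rose and none fell, 50.0% of the group against 11.2% of all features, and all 22 had means above 0, from 0.37 to 0.83, with a median of 0.56 against 0.00 over all features. PAU14 (0.83 ± 0.63), PAU2 (0.78 ± 0.25), PAU11 (0.75 ± 0.28) and PAU20 (0.74 ± 0.25; SD, n = 3) were the highest, and PAU3, PAU7, PAU13, PAU15, PAU16, PAU17 and PAU23 also passed. The PAU genes are so alike in sequence that their probes may read the same transcripts, so the 11 calls are not 11 separate measurements. Without swr1 replicate 2 a single PAU gene passed, and without replicate 1 all 22 did. Over all features these fits gave 279 and 3137 calls in either direction, against 1303 with all 3 arrays.

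**Figure D3:**
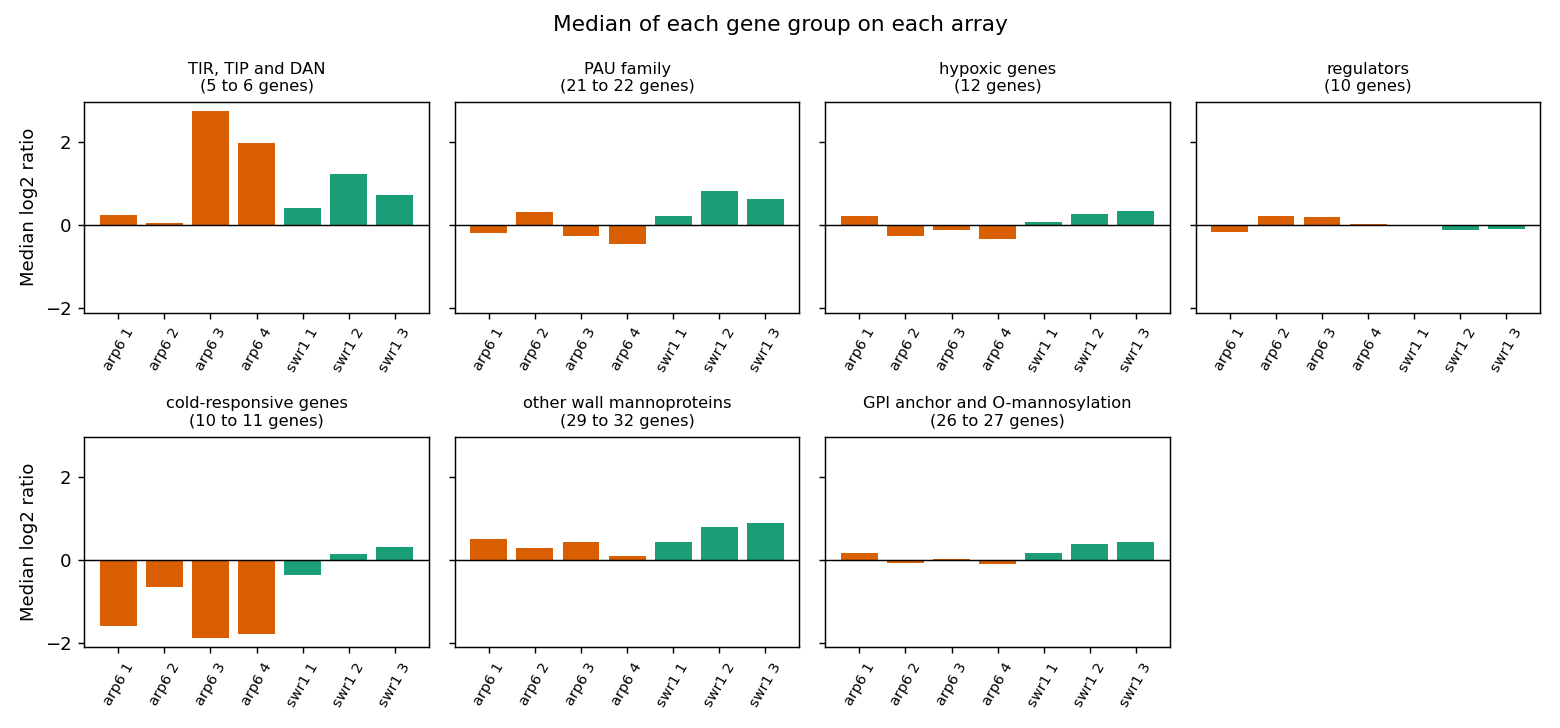
Median log2 ratio (y axis) of each gene group on each of the 7 arrays (x axis; orange for the arp6 and green for the swr1 deletion). The TIR, TIP and DAN genes stand at 2.73 and 1.98 on arp6 replicates 3 and 4 while the PAU family is at −0.27 and −0.45, and the cold-responsive group, mostly stress genes, is below 0 on all 4 arp6 arrays.

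Of 12 hypoxic genes with values (13 listed), none passed in the arp6 deletion (median −0.04), where 5.36% of all features did. On replicates 3 and 4 alone, where 2547 of 5861 features were called in either direction, 3 of the hypoxic genes were called higher and 4 lower. In the swr1 deletion 2 rose, ANB1, the anaerobic form of translation factor eIF5A (0.60 ± 0.13), and PDR11, a transporter for sterol uptake (0.50 ± 0.23; SD, n = 3), out of a group median of 0.24. This is 16.7% of the group against 11.2% of all features, and neither gene passed without replicate 2 or without replicate 3. HEM13, the oxygen-dependent haem enzyme that is raised in hypoxia, was at 0.48 ± 0.38 (SD, n = 3) and did not pass. AUS1, the partner of PDR11 in sterol uptake, was at 0.26 ± 0.37 (SD, n = 3) and did not pass either. Of 10 regulators with values (11 listed), none passed in either mutant, where 5.36% (arp6) and 22.2% (swr1) of all features did. Their medians were 0.11 in the arp6 and −0.08 in the swr1 deletion. With 10 genes, the absence of calls is not read as a lack of change. On arp6 replicates 3 and 4 alone 3 regulators were called higher, in the fit that called 2547 of 5861 features. The repressor gene ROX1 read −0.11, 0.21, 1.63 and 1.56 in the arp6 deletion, near wild type on replicates 1 and 2 and high on replicates 3 and 4, with a mean of 0.82 ± 0.90 (SD, n = 4). The activator gene UPC2 read 1.31 and 1.13 on arp6 replicates 1 and 2 and 0.11 and −0.03 on replicates 3 and 4. In the swr1 deletion UPC2 lay at −0.15, −0.02 and −0.29.

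The cold-responsive group of 11 genes, most of them heat-shock protein, trehalose and glycogen genes that rise with prolonged cold, lay on the other side of wild type from TIR1 and TIP1 in the arp6 deletion. There 5 genes fell and none rose, 45.5% of the group against 3.27% of all features, with a group median of −1.52. This list was chosen with earlier results of these data known. HSP26, HSP104, HSP12 and GLC3 of the list are also among the genes the study names as markedly lower in arp6 cells. The share is therefore a description only. The small heat-shock protein gene HSP26 fell most, with −3.30, −3.03, −5.17 and −5.34 on the 4 arrays and a mean of −4.21 ± 1.22 (SD, n = 4; limma adjusted p = 0.0207). The disaggregase gene HSP104 was at −2.40 ± 0.26 (limma adjusted p = 0.0142), the trehalose synthesis genes TPS1 and TPS2 were at −1.62 ± 0.29 and −1.60 ± 0.79 (limma adjusted p = 0.0276 and 0.0471), and HSP42 was at −1.52 ± 0.66 (SD, n = 4; limma adjusted p = 0.0418). Both array pairs were below wild type for each of these 5 genes, unlike DAN1, TIR2 and TIR3. HSP12, also of this group, lies in a displaced stretch and did not pass at its own row. With the values of the row above on replicates 1 and 2 (−3.92 and −5.19) it passed too (−3.39, limma adjusted p = 0.0303). Without arp6 replicate 1 HSP26, HSP104 and TPS1 still passed, and without replicate 2, 3 or 4 none of the group did. Over all features these 4 fits gave 70, 0, 5 and 3 calls. NSR1, a nucleolar protein gene known from early cold shock, had values only on arp6 replicates 3 and 4 (0.66 and 0.91; not called), and fell in the swr1 deletion, at −0.40 ± 0.04 (SD, n = 3; limma adjusted p = 0.0415), where no other gene of the group was called. NSR1 did not pass without swr1 replicate 2 (limma adjusted p = 0.398) or without replicate 3 (limma adjusted p = 0.167).

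Other wall mannoproteins were compared because they share the anchor and the location of the TIR, TIP and DAN proteins. In the arp6 deletion 3 of 32 rose and 2 fell (38 were listed), 9.38% and 6.25% against 2.09% and 3.27% of all features, with a median of 0.40. SRL1 was at 2.12 ± 0.91 (limma adjusted p = 0.0369), CCW12, one of the most abundant wall proteins, at 1.41 ± 0.54 (limma adjusted p = 0.0397) and SED1, a major GPI wall protein, at 1.09 ± 0.27 (SD, n = 4; limma adjusted p = 0.0417). The stress-induced YGP1 fell by 1.85 ± 0.40 (SD, n = 4; limma adjusted p = 0.0239), and SPI1, induced in weak acid and stationary phase, was at −2.12 ± 0.13 (SD, n = 2; limma adjusted p = 0.0443) on replicates 3 and 4, where it had values. SPI1 lies in a displaced stretch, and with the values of the row above on replicates 1 and 2 (−0.52 and −0.26) it did not pass (−1.26, limma adjusted p = 0.0959). Without any 1 arp6 array no gene of this group was called higher, and YGP1 was the only one still called lower, without replicate 1 (limma adjusted p = 0.0487). Such fits gave 0 to 70 calls over all features. CWP1 read 0.84, 0.34, 1.67 and 1.75, and did not pass.

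In the swr1 deletion 22 of these 32 genes rose and none fell, that is 68.8% of the group against 11.2% of all features, and 31 of 32 had means above 0. The median of 0.67 was close to that of the TIR, TIP and DAN genes, 0.77. CCW22 (1.06 ± 0.36), EGT2 of daughter cell separation (1.03 ± 0.23), DSE2, also a daughter-cell wall protein (1.03 ± 0.30), and PRY3 (1.01 ± 0.49; SD, n = 3) were the highest. CCW12, CCW14, CWP1, ECM33, FLO5, FLO11, CIS3, HSP150, PIR1, PIR3, SRL1, TOS6, UTR2, FIT2, FIT3, HPF1, SAG1 and GAS3 passed as well, between 0.50 and 0.98. SED1 (−0.02, 1.05 and 1.16) and SPI1 (−0.06, 1.05 and 1.07) had the pattern of TIP1, near wild type on replicate 1 and about 2-fold higher on the others, and did not pass. Without replicate 2 the count was 10, without replicate 3 it was 15 and without replicate 1 it was 30. The calls over all features, in either direction, moved as well, to 279, 397 and 3137 from 1303.

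**Figure D4:**
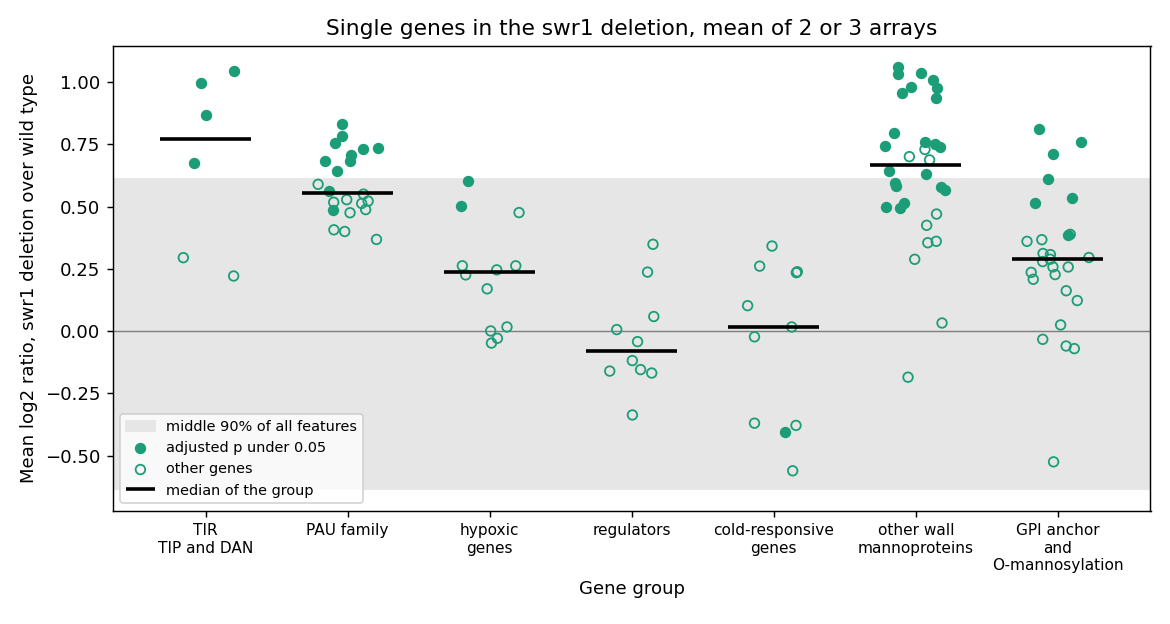
Mean log2 ratio in the swr1 deletion (y axis, 2 or 3 arrays) of each gene, by group (x axis), with genes of limma adjusted p under 0.05 filled, the group median as a black line, and the middle 90% of all 5879 features as a grey band from −0.64 to 0.61. Of the TIR, TIP and DAN genes 4 of 6 are filled, of the PAU family 11 of 22 and of the other wall mannoproteins 22 of 32, while the regulators have none.

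The last group holds enzymes that build the GPI anchor and attach O-linked mannose. Of 27 genes, none passed in the arp6 deletion (median 0.03), where 5.36% of all features did, and 7 rose in the swr1 deletion (median 0.29), 25.9% against 11.2% of all features. These were GAB1 (0.81 ± 0.23) and GPI16 (0.76 ± 0.15; SD, n = 3), both subunits of the transamidase that attaches the anchor, the anchor synthesis genes GPI13, GPI14 and GPI19, and the protein mannosyltransferase genes PMT2 and PMT4, between 0.38 and 0.71. The count was 2 without replicate 2, 3 without replicate 3 and 18 without replicate 1, where all features gave 279, 397 and 3137 calls in either direction.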

How the data were processed

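Expression was measured on dual-colour arrays in 4 arp6 deletion and 3 swr1 deletion samples, each against wild type. The authors deposited normalised log2 ratios, 1 per probe and array; the log base and the direction (deletion over wild type) were settled from the values, the latter from the deleted genes. For the scanner, background correction and normalisation the sources used here give no detail. Spot intensities were not used, so the signal behind a ratio is unknown and precision is limited by how many arrays there are. The study's methods describe independent cultures for its arrays, but no source ties a given array to a culture, so p-values measure the spread between arrays. The study's methods name another temperature and RNA reagent than the labels, which were followed.

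Of 6912 probes, 5945 had values and 5446 had a gene symbol, updated through RefSeq locus tags. Probes of a gene were averaged, and features with values on 2 or more arrays per mutant were tested (5879, of which 5344 were named). Each mutant's ratios were tested against 0 with limma 3.58.1 in R 4.3.3 (lmFit, eBayes, 2-sided), on its own arrays, with Benjamini-Hochberg adjustment at 0.05. The difference between mutants was fitted over all 7 arrays. The fits were tested on simulated data first. Python 3.11.15 with pandas 2.3.3 prepared the tables.

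Members and gene lists were chosen with earlier results of these data known. Named were the members, all list genes called in either mutant (otherwise up to 4 by absolute arp6 mean), the 5 genes most like TIR1 and TIP1, rows beside a member, and ARP6 and SWR1. HEM13, AUS1, HSP12, list genes that differ between the mutants, the genes that follow the members in rank, and the uncalled arp6 values of CWP1 were named after their values were seen. Displaced rows were sought in windows of 121 rows and kept as a stretch at a gain in r of 0.15 or more over at least 60 rows. No sequences were used here.

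Alternatives were 1 fit of all 7 arrays, the methods' t-test with a 1.25-fold minimum, displaced values moved back, scaled or centred arrays, complete features only, array weights, a replicate block, each array left out, and arp6 pairs alone. The values 1 row up for all members were added after seeing the data.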

Additional observations from a re-analysis of the deposited data

Results flagged for a closer look

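In the arp6 deletion, 1 array lay far from the other 3 in 4 of the genes named. HSP42 was at −0.53 on replicate 2 and between −1.88 and −1.80 on the others. PAU2 (0.88), PAU11 (0.66) and PAU13 (1.06) were high on that same replicate 2 and below 0 on the others. Chance flags about 1 in 20 groups, and probes of the PAU genes may read the same transcripts. How many genes were screened is not given here, so nothing is read from the 4.

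For 11 list genes, among 413 of all 5879 features, the difference between the mutants, arp6 minus swr1, passed the threshold in limma over all 7 arrays. In each of the 11 the arp6 deletion was the lower. The lists hold 22, 12, 10, 11, 32 and 27 genes with values, with OLE1 in both the hypoxic and the cold-responsive list. For all features the split of the 413 by direction is not given here, so nothing is read from the count or from its direction. These were HSP26 (−4.19, adjusted p = 0.0215), SPI1 (−2.81, adjusted p = 0.0292), YGP1 (−2.13, adjusted p = 0.0228), HSP104 (−2.03, adjusted p = 0.0161), TPS1 (−1.85, adjusted p = 0.0205), TPS2 (−1.84, adjusted p = 0.0412), HSP42 (−1.62, adjusted p = 0.0412), PIR3 (−1.42, adjusted p = 0.0421), CYC7 (−1.36, adjusted p = 0.0494), HPF1 (−1.09, adjusted p = 0.0412) and PMT5 (−1.07, adjusted p = 0.0470). With displaced values moved back SPI1 did not pass (−1.95, adjusted p = 0.0677). Over all features 3 differences passed without any 1 of the swr1 arrays, and 2 with the replicate number as a block. Without arp6 replicates 1 to 4 in turn, 776, 649, 122 and 5 passed. Which of the 11 genes were among these is not given here. PIR3 and HPF1 had risen in the swr1 deletion and were below wild type on all 4 arp6 arrays.

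For 8 more list genes all arp6 arrays lay on one side of wild type and all swr1 arrays on the other, while the limma test of the difference did not pass. The same was not counted over all features, so nothing is read from the 8. GPI16 (−1.36, adjusted p = 0.0607), PAU14 (−1.17, adjusted p = 0.0632), PAU6 (−0.91, adjusted p = 0.0586), SMP3 (−0.78, adjusted p = 0.0649), SPT23, an activator of the desaturase gene OLE1 (−0.77, adjusted p = 0.125), PAU21 (−0.69, adjusted p = 0.0901) and PMT6 (−0.66, adjusted p = 0.123) were lower in the arp6 deletion, and MGA2, the paralogue of SPT23, was higher (0.87, adjusted p = 0.116). GPI16 and PAU14 lie in displaced stretches, and with their values moved back they were above 0 on arp6 replicates 1 and 2.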

How the results depend on the processing

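The number of arrays and the unknown signal over background limit every test. The arp6 deletion gave 315 calls, the swr1 deletion 1303, their difference 413, the lists 53 over both mutants, and the 6 genes 4 in the swr1 deletion.

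In 1 fit of all 7 arrays the arp6 deletion had 1577 calls and the swr1 deletion 0 (790 at an unadjusted p under 0.05), with 24 list genes and 0 of the 6 genes. The methods' t-test gave 1243 and 855 features at its unadjusted threshold and minimum fold change, and after Benjamini-Hochberg adjustment 0 in either mutant (1291 and 1225 at an unadjusted p under 0.05), so 0 list genes and 0 of the 6 genes. It called 3 of the 6 genes unadjusted, TIR1, TIR2 and DAN1. Scaled arrays gave 810 calls for the arp6 deletion and 849 for the difference. The arp6 replicates 3 and 4 alone gave 2547 calls, 2294 for the difference and 95 list genes, and replicates 1 and 2 alone gave 1305 for the difference. Array weights gave 3018 for the difference.

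Leaving out 1 array gave 0 to 70 calls for the arp6 deletion, 279 to 3137 for the swr1 deletion, 3 to 776 for the difference, 24 to 95 list genes and 2 to 5 of the 6 genes. The highest swr1, list and member counts came without swr1 replicate 1 and the lowest without replicate 2. Fits that leave 2 arrays rest on limma's shared spread.

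The median of the 6 genes in the arp6 deletion, 1.02 with an SD of 1.31 between arrays, was 0.15 on replicates 1 and 2 and 2.33 on replicates 3 and 4. With displaced values moved back it was 1.14, and with all members 1 row up, an alternative chosen after seeing the data, 1.44.

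With the replicate number as a block the difference had 2 calls. For same-numbered arrays of the mutants, the deviations from the mean of replicates 1 to 3 correlated at r = 0.05, 0.05 and −0.08. Whether such arrays shared a culture day or a wild-type RNA cannot be told from this. An RNA common to all arrays would cancel in the deviations. Centred arrays and complete features moved none of these totals by more than 1.5 times. The causes of these changes were not tested.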
